A study of Mus musculus with 15 samples.

Results

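Rab GTPases are the small GTP-binding proteins that mark membranes for vesicle transport, and their transcripts were measured in fibroblasts sorted from the mouse thymus before and after irradiation. All rows of the deposited count table whose gene symbol is Rab followed by a number and at most 1 letter were taken, which gave 47 genes of 12763. Of these, 45 passed a filter on low counts, as did 10207 genes in all. Young male wild-type (WT) mice were left untreated or received 425 rad of sublethal irradiation, and fibroblasts were collected 1 day or 3 days later, with 5 libraries in each of the 3 groups and untreated controls matched for age. The sort is labelled CD45-EpCAM+CD34+CD31-PDGFRalpha+, so the cells were chosen by surface proteins and no other fractionation is recorded. Whether each library of a group is a separate animal is not stated in the labels, and the p-values therefore reflect only how far these samples vary among themselves. In bulk RNA, fewer cells of a type and less RNA per cell cannot be told apart.

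A Rab protein cycles between a GDP-bound form held in the cytosol and a GTP-bound form on a membrane, where it recruits the tethers, motors and coat-linked proteins that move and fuse a vesicle. Guanine nucleotide exchange factors switch Rabs on, GTPase-activating proteins switch them off, and a prenyl tail attached after synthesis anchors them. Secretory Rabs act from the endoplasmic reticulum (ER) through the Golgi to the cell surface, a route that fibroblasts use heavily because they export collagen and other matrix proteins. Endosomal Rabs sort what a cell takes up, and recycling Rabs return receptors and integrins to the surface. The genes were assigned to these routes from general knowledge of the proteins, with 18 secretory genes, 12 endosomal genes, 7 recycling genes and 10 genes with other or specialised roles.

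MARS-seq counts captured mRNA molecules at their 3' ends by unique molecular identifiers (UMIs), so levels were not divided by transcript length. Library totals ran from 740169 to 3750214 UMIs, and the Rab genes together gave 1624 to 8401 UMIs a library. Levels are in CPM, UMI counts scaled to a common library size after TMM normalization, as mean ± SD with n = 5, and log2 changes are given ± SE from edgeR's quasi-likelihood test with Benjamini-Hochberg adjustment over all 10207 genes, called below 0.05. Day 1 replicate 1 had the fewest UMIs and stood apart on the second principal component (66.0, while the remaining day 1 libraries had −27.3 to −24.0). Counts by route that change without it are therefore given without it too, and calls lost without it are named. The 10 fibroblast markers summed to 52226 to 60916 CPM (of the plain library total) in untreated libraries, 11393 to 25976 at day 1 and 40253 to 46656 at day 3, with 8 of 10 lower at day 1. The 18 macrophage and dendritic cell markers summed to 215 to 788 CPM, then 990.0 to 1546, then 120.5 to 226. Against untreated libraries, 10 of 12 tested markers were higher at day 1, and at day 3 7 were lower and 1 was higher. Of these 18 markers, 12 were seen in every library, among them Csf1r with 86, 391 and 220 UMIs over the 3 groups, Cd68 with 123, 545 and 397, C1qb with 256, 731 and 63, and Tyrobp with 132, 602 and 38. The other 6 were at 0 in some libraries, among them Fcgr1 in 9 and Adgre1 in 5 of the 15. The 8 mesothelial markers summed to 133 to 455 CPM, then 454 to 3097, then 343 to 1621. All 8 of these were higher at day 1, and 5 were higher at day 3. Of 9 thymic epithelial markers, 5 were among the counted genes. They summed to 15.8 to 31.9 CPM, then 25.8 to 304, then 38.1 to 166. Only 3 could be tested, all higher at day 1 and 2 of them at day 3. Krt8, which is also among the mesothelial markers, gave 45, 713 and 709 UMIs over the 3 groups. Krt14 gave 22, 377 and 486 UMIs, and Aire gave 19, 10 and 2. Epcam, which the sort label gives as positive, gave 11, 10 and 10 UMIs over the 3 groups and was at 0 in 4 libraries. These marker differences accompany every Rab result that follows, and their part in those results was not tested.

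In untreated fibroblasts the late endosome Rab was the most abundant, and 5 Rab genes made up 33.7% of all Rab transcripts. Rab7, which drives fusion of late endosomes with lysosomes, was at 240.4 ± 19.5 CPM, and its lowest untreated library, at 222 CPM, lay above the highest of any other Rab gene, which was Rab2a at 171 CPM. Rab2a, which acts between the Golgi and the ER, followed at 132 ± 22.8 CPM. Next came Rab34, linked to primary cilia and macropinosomes, at 127 ± 11.8 CPM, Rab5c of early endosomes at 125 ± 25.5 CPM and Rab1b of ER-to-Golgi transport at 122 ± 9.63 CPM. These last 4 means lay within each other's spread. Another 36 Rab genes lay between 10 and 100 CPM, and Rab15, Rab19, Rab5a and Rab42 lay under 10 CPM. Rab27a, known from exocytosis of lysosome-related granules, gave 58 UMIs over all 15 libraries and Rab33a gave 25. Neither passed the filter, so they were not tested.

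**Figure D1:**
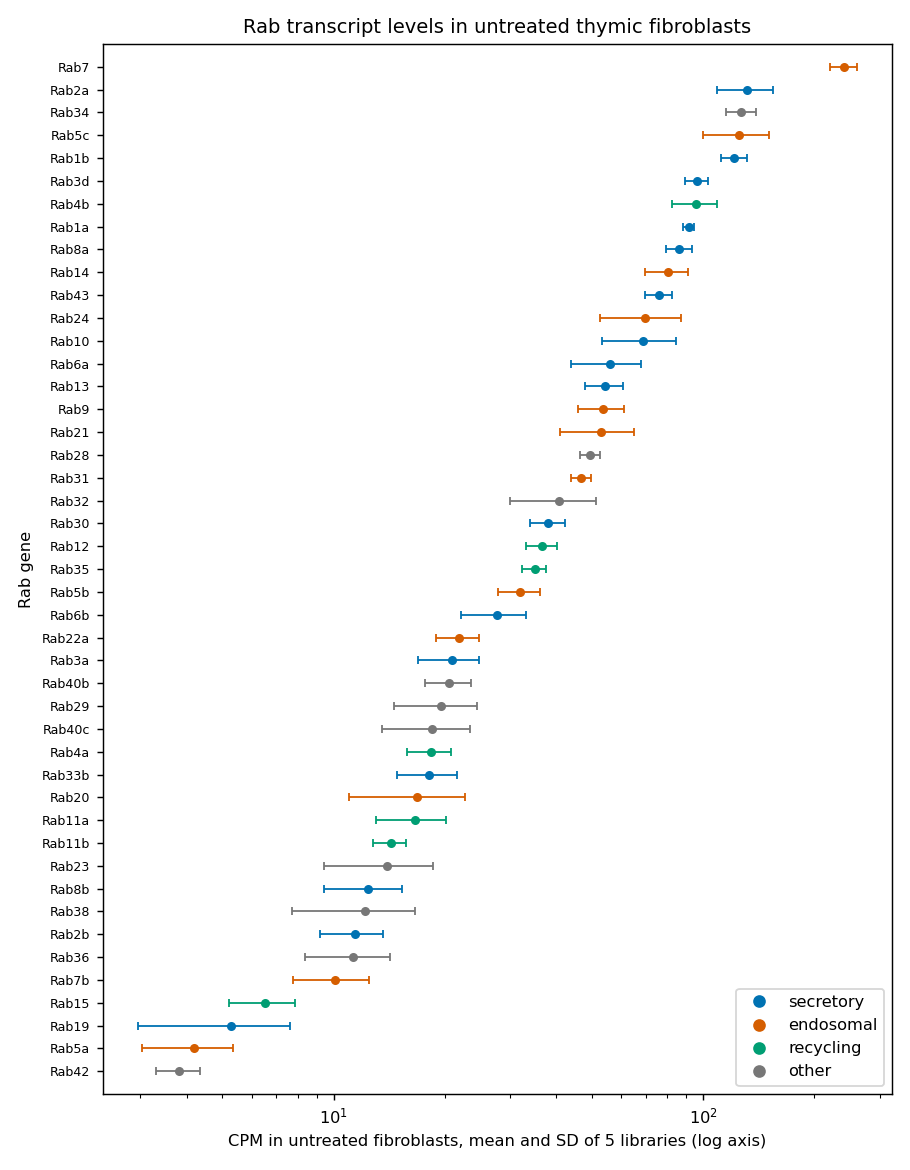
Mean level of the 45 tested Rab genes in untreated thymic fibroblasts in CPM on a log axis, with bars for the SD of 5 libraries and colours for the route. Rab7 stands at 240.4 CPM, and each route holds both abundant and rare genes.

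At day 1, 29 of the 45 tested Rab genes were called against untreated libraries, 11 higher and 18 lower, which is 64.4% of them beside 46.2% of all genes tested. Over all genes the calls were balanced, with 23.1% higher and 23.1% lower. In 17 Rab genes the untreated and day 1 libraries did not overlap, 6 with day 1 above and 11 with day 1 below, beside 27.6% of all genes, 13.4% above and 14.2% below. The median log2 change was −0.27 over the Rab genes and −0.02 over all genes tested. Secretory genes had 4 higher and 7 lower of 16 tested, with a median of −0.53. Endosomal genes had 4 higher and 4 lower of 12, with a median of 0.10. Recycling genes had 2 higher and 3 lower of 7, with a median of −0.35, and the genes of other roles had 1 higher and 4 lower of 10. The routes thus held rises and falls alike.

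These counts depend on scaling, because total-count scaling in place of TMM moves the median log2 change of all genes from −0.02 to −0.29 and leaves 29.1% of all called genes higher. Under it, 6 Rab genes were called higher and 24 lower at day 1, and the endosomal median turned negative, at −0.17. The rises called under both scalings were Rab20, Rab15, Rab5a, Rab5c, Rab4b and Rab13, while Rab1b (adjusted p = 0.64), Rab21 (0.51), Rab8a (0.48), Rab19 (0.10) and Rab29 (0.051) were not called under total-count scaling. Without day 1 replicate 1, the counts at day 1 were again 11 higher and 18 lower, with 3 higher and 8 lower among secretory genes, 4 and 3 among endosomal genes and 2 and 3 among recycling genes. Rab32 was then called higher (log2 change 0.58, adjusted p = 0.016) and Rab43 and Rab3a lower (−0.46 and −0.64, adjusted p = 0.010 and 0.029), while Rab5b, Rab8a and Rab33b were no longer called. The authors' deposited table, made with DESeq2, held 29 Rab genes with an adjusted p under 0.05 at day 1, 12 higher and 17 lower. It shares 28 of the 29 genes called here, with matching signs. The share of all genes under that threshold in the deposited table was not counted.

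**Figure D2:**
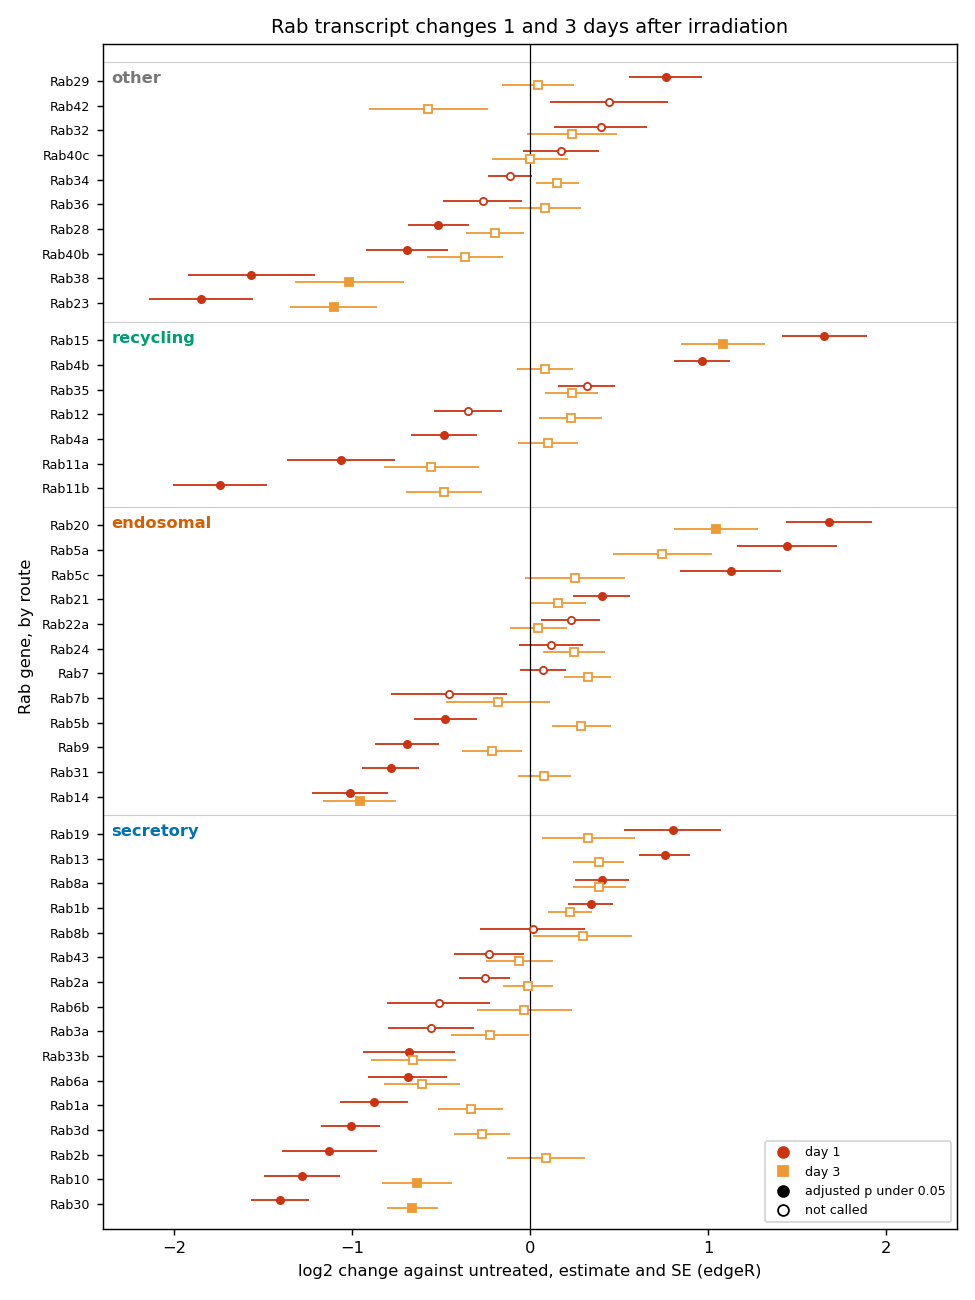
Log2 change of each tested Rab gene at day 1 (circles) and day 3 (squares) against untreated libraries with its SE, grouped by route, with filled symbols for an adjusted p under 0.05. At day 1 filled symbols lie on both sides of 0 in every route, and at day 3 only 7 symbols are filled.

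Among the secretory genes, those of the ER-to-Golgi and Golgi steps had 5 of 10 tested lower and 2 higher, beside 23.1% of all genes in each direction. With an offset for 3' end composition, described below, the falls of Rab1a, Rab6a and Rab33b were not called (adjusted p = 0.061, 0.35 and 0.42). Nor was the rise of Rab1b (0.74), so the excess of falls depends on that setting. Rab30, a Golgi Rab, was at 41.7, 37.2, 34.5, 33.9 and 43.0 CPM in the untreated libraries and at 11.0, 15.3, 12.9, 14.3 and 16.4 CPM at day 1. All day 1 libraries lay below all untreated ones, and its log2 change was −1.41 ± 0.16 (adjusted p = 5.1e-07), the smallest p of any Rab gene. Rab1a, which tethers ER-derived vesicles at the Golgi, went from 89.3, 91.7, 87.1, 93.7 and 94.5 CPM to 18.9, 49.3, 57.7, 53.9 and 59.7 CPM. It fell by 0.87 ± 0.19 on the log2 scale (adjusted p = 7.9e-04), with no overlap between the groups. Its close relative Rab1b went the other way, from 138, 117, 116, 114 and 123 CPM to 149.6, 148, 178, 142 and 149 CPM, also without overlap, and rose by 0.34 ± 0.13 (adjusted p = 0.030). Rab2b was at 11.9, 8.08, 10.4, 13.4 and 13.2 CPM and then at 1.57, 5.67, 4.44, 6.93 and 5.25 CPM, a log2 change of −1.13 ± 0.27 (adjusted p = 0.0016) with every day 1 library lower. The more abundant Rab2a was not called, at 132 ± 22.8 CPM before and 110.2 ± 13.4 CPM after (log2 change −0.25 ± 0.14, adjusted p = 0.15). Rab6a, which works in retrograde transport through the Golgi, fell from 55.8 ± 11.8 to 34.1 ± 15.1 CPM (adjusted p = 0.015), and Rab33b, a Golgi Rab linked to autophagy, fell from 18.2 ± 3.35 to 10.4 ± 4.66 CPM (adjusted p = 0.034). Both overlapped between the groups. Rab19 rose from 5.29 ± 2.33 to 8.93 ± 1.31 CPM (adjusted p = 0.019), and Rab6b was not called. Rab43 was not called either, at 119.7 CPM in day 1 replicate 1 and 46.0 to 64.6 CPM in the other day 1 libraries, and was called lower without that library.

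The exocytic genes, which bring vesicles to the cell surface, had 2 higher and 2 lower of 6 tested, beside 23.1% of all genes in each direction. Rab3d, a Rab of regulated secretory granules, was at 85.1, 95.8, 97.1, 98.1 and 105 CPM in untreated libraries and at 33.1, 51.5, 69.4, 40.6 and 38.7 CPM at day 1. No day 1 library reached the lowest untreated one, and the log2 change was −1.01 ± 0.17 (adjusted p = 4.4e-05). Rab10, which carries vesicles such as those of the glucose transporter in fat cells, went from 49.3, 88.1, 76.6, 72.9 and 56.6 CPM to 12.6, 32.3, 27.0, 24.7 and 40.03 CPM. Its libraries did not overlap either, and it fell by 1.28 ± 0.21 on the log2 scale (adjusted p = 4.9e-05). Rab13, known for delivery to cell junctions, moved from 47.6, 54.5, 58.6, 62.1 and 48.5 CPM up to 107, 88.1, 77.1, 93.0 and 99.7 CPM. Every day 1 library was above every untreated one, with a log2 change of 0.76 ± 0.14 (adjusted p = 2.0e-04). Rab8a, which acts between the Golgi and the surface, rose from 86.2 ± 7.04 to 116 ± 26.7 CPM (adjusted p = 0.033), with overlapping groups, and its relative Rab8b was at 12.4 ± 2.94 and 11.3 ± 5.71 CPM (adjusted p = 0.97). Rab3a was not called, at 20.9 ± 3.92 and 15.4 ± 5.35 CPM (adjusted p = 0.064), but was called lower without day 1 replicate 1.

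**Figure D3:**
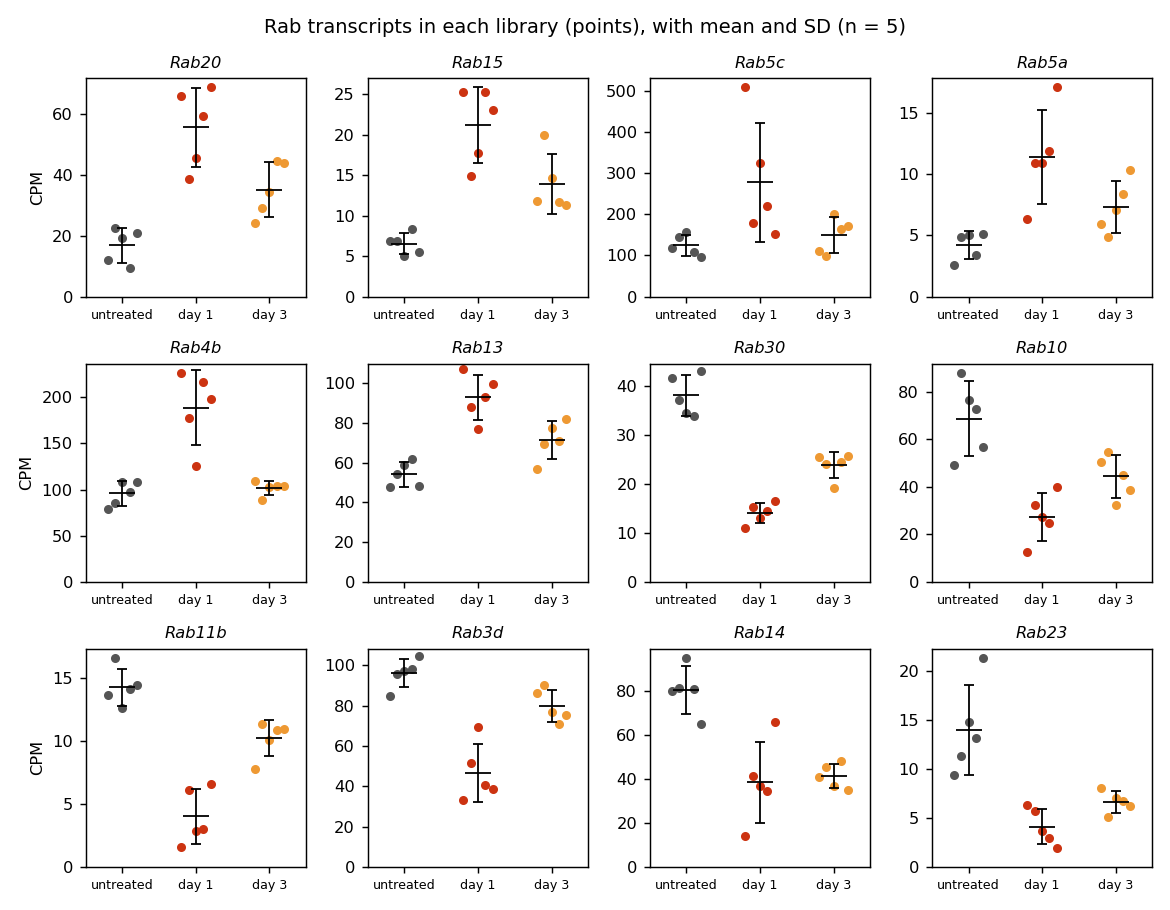
CPM of 12 Rab genes in each of the 15 libraries (points) with the mean and SD of 5 libraries per group, each panel starting at 0. Rab20, Rab15, Rab5a, Rab4b and Rab13 have all day 1 points above the untreated points, Rab30, Rab10, Rab11b, Rab3d and Rab23 have them all below, and Rab5c and Rab14 overlap.

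Of the 8 early endosome genes tested, 4 were higher and 3 lower, beside 23.1% of all genes in each direction, and the calls of Rab21 and Rab5b among them were lost in several alternatives. The 3 Rab5 genes, whose proteins drive the fusion of early endosomes, did not move together, and Rab20, known for maturation of phagosomes and endosomes, was among the Rab genes that rose most. Their promoter windows are shown as sequence only, for genes picked after their changes had been seen. Each runs 5′ to 3′ on the gene's strand from 250 bases before to 50 after the RefSeq start, on GRCm38.p6. Rab5a is at chr17:53478984-53479283 on the plus strand, Rab5b at chr10:128696219-128696518, Rab5c at chr11:100738166-100738465 and Rab20 at chr8:11478591-11478890, these last 3 on the minus strand. Capitals mark the CCAAT box (CCAAT, or ATTGG on the other strand), the E-box CACGTG and the CRE TGACGTCA, of which the last 2 read the same on both strands and none overlapped another here.
Rab5a: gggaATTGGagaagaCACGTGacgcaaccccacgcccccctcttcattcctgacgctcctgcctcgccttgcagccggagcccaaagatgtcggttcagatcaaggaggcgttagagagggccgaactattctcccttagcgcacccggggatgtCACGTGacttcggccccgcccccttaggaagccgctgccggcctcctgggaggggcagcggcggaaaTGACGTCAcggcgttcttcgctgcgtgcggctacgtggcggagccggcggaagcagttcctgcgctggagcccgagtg
Rab5b: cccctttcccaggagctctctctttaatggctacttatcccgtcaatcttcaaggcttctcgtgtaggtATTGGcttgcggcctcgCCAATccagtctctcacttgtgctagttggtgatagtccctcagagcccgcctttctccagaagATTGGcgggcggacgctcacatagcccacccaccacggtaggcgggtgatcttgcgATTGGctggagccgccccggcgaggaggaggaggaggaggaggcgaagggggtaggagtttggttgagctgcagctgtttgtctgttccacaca
Rab5c: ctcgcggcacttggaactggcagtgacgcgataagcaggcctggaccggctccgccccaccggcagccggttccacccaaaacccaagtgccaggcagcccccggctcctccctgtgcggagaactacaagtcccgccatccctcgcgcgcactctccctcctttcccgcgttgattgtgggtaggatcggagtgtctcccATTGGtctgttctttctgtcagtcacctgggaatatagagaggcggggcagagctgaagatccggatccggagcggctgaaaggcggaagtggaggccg
Rab20: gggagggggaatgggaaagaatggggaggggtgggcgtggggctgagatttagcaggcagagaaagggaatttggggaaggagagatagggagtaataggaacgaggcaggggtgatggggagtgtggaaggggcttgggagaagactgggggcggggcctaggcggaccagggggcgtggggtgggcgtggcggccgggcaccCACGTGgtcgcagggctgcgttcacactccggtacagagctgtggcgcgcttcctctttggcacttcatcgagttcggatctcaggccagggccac

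The Rab5a window held 2 E-boxes, 1 CRE and 1 CCAAT box, the Rab5b window 4 CCAAT boxes, the Rab5c window 1 CCAAT box and the Rab20 window 1 E-box. Among all 32851 promoter windows of this length, 37.4% held a CCAAT box, 7.15% the E-box and 1.79% the CRE. RefSeq windows matched 41 of the 47 Rab genes, with 53 windows in all, of which 23 held a CCAAT box, 6 the E-box and 1, that of Rab5a, the CRE. The GC box GGGCGG, which is not marked, was in all 4 windows shown, in 37 of the 53 Rab windows and in 35.7% of all windows. The other motifs searched for had no match in the 4 windows. A match is a description of these letters only.

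Rab20 was at 11.9, 22.6, 19.4, 9.40 and 20.9 CPM in untreated libraries and at 66.1, 38.8, 45.6, 59.4 and 68.9 CPM at day 1. The groups did not overlap, and the log2 change was 1.68 ± 0.24, or 3.20-fold (adjusted p = 8.7e-06). Macrophages express Rab20, and the summed macrophage markers given above were also higher at day 1, as were the mesothelial ones. Their part in the Rab20 result was not tested. Rab5a was the rarest of the Rab5 genes, at 2.55, 4.85, 5.04, 3.36 and 5.11 CPM, and reached 6.30, 10.9, 10.9, 11.9 and 17.1 CPM. All day 1 libraries were above the untreated ones (log2 change 1.44 ± 0.28, adjusted p = 2.7e-04). Rab5c, the most abundant, was at 117, 146, 158, 108 and 97.5 CPM and then at 510.2, 180.1, 325, 221 and 152 CPM. Its groups overlapped, and it rose by 1.13 ± 0.28 on the log2 scale (adjusted p = 0.0035). Without day 1 replicate 1, the library at 510.2 CPM, the change was 0.82 (adjusted p = 0.0093). Rab5b went from 28.9, 34.3, 32.0, 27.2 and 37.5 CPM to 17.3, 16.1, 27.4, 25.2 and 26.9 CPM and was lower, with 1 day 1 library just above the lowest untreated one (log2 change −0.48 ± 0.18, adjusted p = 0.033).

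The remaining early endosome genes split in the same way. Rab14, which moves cargo between the Golgi and endosomes, went from 80.0, 81.2, 95.0, 80.6 and 64.7 CPM to 14.2, 41.0, 36.7, 34.6 and 65.6 CPM. A single day 1 library lay within the untreated range, and the gene fell by 1.01 ± 0.21 on the log2 scale (adjusted p = 5.9e-04). Rab31, which works between the trans-Golgi and early endosomes, was at 51.0, 46.9, 45.3, 47.4 and 43.4 CPM and then at 29.9, 25.3, 35.9, 25.7 and 18.4 CPM. No library overlapped, with a log2 change of −0.78 ± 0.16 (adjusted p = 4.3e-04). Rab21, known for integrin uptake, rose from 53.0 ± 12.1 to 69.5 ± 10.004 CPM (adjusted p = 0.045), and Rab22a was not called, at 21.8 ± 2.85 and 25.2 ± 3.87 CPM (adjusted p = 0.27).

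Of the 4 late endosome genes tested, 1 was called, as lower, beside 23.1% of all genes in each direction. So few genes cannot set this step apart from that share. Rab9, which returns cargo from late endosomes to the trans-Golgi, went from 60.4, 46.5, 55.4, 60.8 and 44.7 CPM to 22.0, 26.6, 32.7, 39.6 and 40.7 CPM. Day 1 lay below every untreated library, and Rab9 fell by 0.69 ± 0.18 (adjusted p = 0.0034). Rab7 was at 253.6 ± 39.9 CPM at day 1, a log2 change of 0.07 ± 0.13 (adjusted p = 0.67). Rab24, linked to autophagy, and Rab7b were not called either.

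The recycling genes held both large rises and large falls. Rab15, known in endocytic recycling, was at 6.81, 6.87, 5.04, 8.40 and 5.53 CPM in untreated libraries and at 25.2, 14.8, 17.8, 25.2 and 23.0 CPM at day 1. The groups did not overlap, with a log2 change of 1.65 ± 0.24, or 3.14-fold (adjusted p = 9.7e-06). Rab4b, of the fast recycling route, went from 79.1, 85.7, 109, 97.1 and 109 CPM to 227, 178, 125, 217 and 198 CPM. Every day 1 library was higher, and Rab4b rose by 0.97 ± 0.16 (adjusted p = 3.7e-05). The annotated readthrough gene Gm21983 shares the 3' end of Rab4b on the same strand, so UMIs of the 2 genes cannot be told apart. Its relative Rab4a, at 21.3, 18.6, 18.0, 14.4 and 19.2 CPM and then 14.2, 11.3, 15.3, 13.4 and 10.5 CPM, moved the other way with overlapping groups (log2 change −0.48 ± 0.19, adjusted p = 0.037). Both Rab11 genes, which define the slow recycling endosome, fell. Rab11b went from 13.6, 16.6, 12.6, 14.1 and 14.5 CPM to 1.57, 6.11, 2.83, 2.97 and 6.56 CPM, without overlap, a change of −1.74 ± 0.26 (adjusted p = 1.7e-05). Rab11a went from 22.1, 16.2, 17.3, 12.8 and 14.5 CPM to 3.15, 10.9, 6.86, 4.45 and 11.2 CPM, also without overlap (−1.06 ± 0.30, adjusted p = 0.0067). Rab35 and Rab12 were not called, with log2 changes of 0.32 ± 0.16 (adjusted p = 0.10) and −0.35 ± 0.19 (adjusted p = 0.14).

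Among the genes of other roles, Rab23, a negative regulator of hedgehog signalling that acts at the primary cilium, had the largest fall of any Rab gene tested. It was at 9.36, 11.3, 14.7, 13.1 and 21.3 CPM in untreated libraries and at 6.30, 5.67, 3.63, 2.97 and 1.97 CPM at day 1. These did not overlap, and the log2 change was −1.85 ± 0.29, a fall to 0.278 of the untreated level (adjusted p = 2.7e-05). Rab38, known from melanosome transport, went from 11.9, 8.08, 19.4, 9.07 and 12.3 CPM to 0, 5.23, 3.23, 3.96 and 5.91 CPM. It fell by 1.56 ± 0.36 (adjusted p = 0.0011), with every day 1 library below the untreated ones. Rab32, which acts in the same route, was at 14.2 CPM in day 1 replicate 1 and at 45.3 to 67.8 CPM in the other day 1 libraries, beside 29.6 to 53.6 CPM in untreated ones. It was not called with all libraries (log2 change 0.40 ± 0.26, adjusted p = 0.22) and was called higher without that one (0.58, adjusted p = 0.016). Rab29, studied with the kinase LRRK2, rose from 19.5 ± 4.91 to 31.5 ± 8.62 CPM (adjusted p = 0.0045). Rab28 and Rab40b fell, with adjusted p = 0.018 for each and overlapping groups. Rab34, Rab36, Rab40c and Rab42 were not called.

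Of the 29 calls at day 1, 19 held when any single library was left out. Rab20, Rab15, Rab5a, Rab5c, Rab4b, Rab13 and Rab29 are the 7 rises among them. Rab19 was lost without untreated replicate 3 (adjusted p = 0.067), Rab28 and Rab40b without day 1 replicate 4 (0.051 and 0.059), and Rab6a without day 1 replicate 3 (0.051). Another 6 calls of small changes crossed the threshold when any of several libraries was left out, with log2 changes of 0.28 to 0.34 for Rab1b, 0.32 to 0.40 for Rab21, 0.30 to 0.41 for Rab8a, −0.50 to −0.41 for Rab4a, −0.48 to −0.34 for Rab5b and −0.66 to −0.55 for Rab33b in those fits. Rab1b was lost without untreated replicate 2, 3, 4 or 5 or day 1 replicate 3 (adjusted p from 0.050 to 0.078), Rab8a without untreated replicate 1, 2, 4 or 5 or day 1 replicate 1 or 4 (0.050 to 0.077) and Rab21 without untreated replicate 1, 3 or 4 or day 1 replicate 2, 3, 4 or 5 (0.063 to 0.11). Rab4a was lost without untreated replicate 1, 2, 3 or 5 or day 1 replicate 2, 4 or 5 (0.054 to 0.10), Rab5b without untreated replicate 2, 3 or 5 or day 1 replicate 1 or 2 (0.051 to 0.13) and Rab33b without untreated replicate 3, 4 or 5 or day 1 replicate 1, 2 or 5 (0.055 to 0.083).

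Whether the summed Rab level differed from untreated libraries depended on scaling, while the shares of the routes within it do not depend on scaling. With TMM scaling, the 47 genes summed to 2211 ± 62.4 CPM in untreated libraries, 2277 ± 209 at day 1 and 2273 ± 39.6 at day 3. Day 1 and day 3 libraries each overlapped the untreated ones. Scaled to total counts, the sums were 2407 ± 49.0, 2056 ± 177 and 2282 ± 35.7. All day 1 libraries (at most 2261 CPM) and day 3 libraries (at most 2323 CPM) then lay below the lowest untreated one, at 2356 CPM. Within the Rab UMIs of a library, which no scaling changes, secretory genes made up 40.5% to 42.4% in untreated libraries, 32.0% to 36.3% at day 1 and 37.4% to 41.0% at day 3. Untreated and day 1 libraries did not overlap. Recycling genes made up 9.31% to 10.68%, then 10.75% to 14.8%, then 10.1% to 11.5%, so untreated and day 1 libraries lay next to each other without overlap. With TMM scaling, the recycling genes summed to 223 ± 12.9 CPM in untreated libraries and 307 ± 37.2 CPM at day 1. Rab4b alone, whose UMIs cannot be told from those of Gm21983, was at 95.8 ± 13.3 and 189 ± 40.3 CPM. The higher share thus lay in Rab4b and not in the route as a whole, whose median log2 change was −0.35. Endosomal genes made up 32.5% to 35.3%, then 34.7% to 44.95%, then 34.7% to 39.1%, with overlap. The highest endosomal share was that of day 1 replicate 1, in which Rab5c was also highest. These shares sum to 100% in each library, so they do not move independently.

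At day 3 few Rab genes were called against untreated libraries, 7 of 45 tested or 15.6%, beside 18.4% of all genes, with 2 higher and 5 lower. The background was 9.2% higher and 9.25% lower. Both rises were genes that had also been higher at day 1. Rab20 was at 24.2, 29.2, 34.3, 44.6 and 43.9 CPM, above every untreated library (log2 change 1.04 ± 0.24, or 2.06-fold, adjusted p = 0.0041). Rab15 was at 11.8, 19.97, 14.6, 11.7 and 11.3 CPM, again above every untreated library (1.08 ± 0.23, or 2.12-fold, adjusted p = 0.0030). With counts thinned to the smallest library total the Rab15 call was lost (0.91, adjusted p = 0.060), as was that of Rab10 (−0.66, adjusted p = 0.076). At this time the summed macrophage markers, at 120.5 to 226 CPM, were below or within the untreated range of 215 to 788 CPM, while mesothelial markers were higher. The macrophage markers did not move together, as 7 of 12 tested were lower and 1 was higher than in untreated libraries. In unscaled UMIs, Cd68 went from 123 in untreated libraries to 397 at day 3 and Csf1r from 86 to 220. C1qb went from 256 to 63 and Tyrobp from 132 to 38. The part of either cell type was not tested.

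The 5 falls at day 3 were in Rab14, Rab30, Rab23, Rab38 and Rab10. Rab14 was at 41.0, 45.3, 36.8, 47.9 and 35.0 CPM, below every untreated library, with a log2 change of −0.96 ± 0.21 (adjusted p = 0.0028). Rab30 was at 25.5, 24.0, 19.2, 24.5 and 25.7 CPM and Rab23 at 8.07, 5.13, 7.06, 6.69 and 6.17 CPM, both without overlap, with changes of −0.66 ± 0.14 (adjusted p = 0.0032) and −1.103 ± 0.24 (adjusted p = 0.0034). Rab38 and Rab10 overlapped with untreated libraries, with changes of −1.01 ± 0.31 (adjusted p = 0.024) and −0.64 ± 0.20 (adjusted p = 0.028). Rab38 was lost without untreated replicate 3 or day 3 replicate 2 or 4 (adjusted p from 0.068 to 0.12), and Rab10 without untreated replicate 2, 3 or 4 or day 3 replicate 3, 4 or 5 (0.057 to 0.095). Groups did not overlap in 8 Rab genes at day 3, 4 above and 4 below, beside 15% of all genes, 7.78% above and 7.25% below. Of these, Rab7, at 291, 290.4, 312, 303 and 307 CPM, lay above every untreated library but was not called (log2 change 0.32 ± 0.13, adjusted p = 0.088), and Rab35 and Rab11b likewise missed the threshold (adjusted p = 0.31 and 0.12). Rab6a lay at the threshold, with a change of −0.61 ± 0.21 and an adjusted p of 0.05003, and was not called. In the alternatives with DESeq2, voom and the compared groups alone, Rab6a was called lower. Rab7, Rab8a and Rab13 were called higher in each of them. The adjusted p of these genes ran from 0.0056 to 0.049 there. Unadjusted, 15 Rab genes had p under 0.05 at day 3, and the authors' deposited table held 11 Rab genes with an adjusted p under 0.05, 5 higher and 6 lower. The shares of all genes at these thresholds were not counted, so neither count can be set against a background.

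Between day 1 and day 3, 19 of 45 Rab genes were called, 42.2% beside 32.7% of all genes, with 11 higher at day 3 and 8 lower. The background was 16.1% higher and 16.6% lower. This comparison uses the same day 1 and day 3 libraries as those above, so the values are given as its own. The clearest rises from day 1 were in Rab31, from 27.0 ± 6.46 to 49.4 ± 4.42 CPM (log2 change 0.86 ± 0.16, adjusted p = 2.4e-04), Rab11b, from 4.01 ± 2.20 to 10.2 ± 1.44 CPM (1.26 ± 0.27, adjusted p = 9.7e-04), and Rab2b, from 4.77 ± 2.001 to 11.9 ± 2.68 CPM (1.22 ± 0.26, adjusted p = 0.0010). In these 3 genes all day 3 libraries were above all day 1 libraries. Rab30, Rab3d, Rab5b and Rab4a were higher at day 3 without overlap too, by 0.74 ± 0.16 (adjusted p = 0.0014), 0.74 ± 0.17 (0.0015), 0.76 ± 0.17 (0.0017) and 0.58 ± 0.18 (0.016). Of these, Rab5b and Rab4a were not called with thinned counts (adjusted p = 0.16 and 0.25), and Rab30 was not called with an offset for 3' end composition (0.38, adjusted p = 0.090). Rab12, Rab10, Rab1a and Rab9 were also higher, with overlapping groups and adjusted p from 0.021 to 0.043. Rab4b had the smallest p among the falls, from 189 ± 40.3 to 102 ± 7.59 CPM (−0.88 ± 0.16, adjusted p = 1.6e-04), with every day 3 library at 109 CPM or less and every day 1 library at 125 CPM or more. Rab29 was lower as well (−0.72 ± 0.20, adjusted p = 0.0081). Rab5c, Rab42, Rab20, Rab5a, Rab15 and Rab13 were lower with overlapping groups and adjusted p from 0.023 to 0.046. Groups did not overlap in 10 Rab genes, 8 above and 2 below, beside 20.6% of all genes, 10.5% above and 10.1% below. Rab14 did not differ beyond its spread, at 38.4 ± 18.4 and 41.2 ± 5.48 CPM (0.05 ± 0.22, adjusted p = 0.88).

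Of these 19 calls, 8 held without any single library, 6 higher and 2 lower, the lower ones being Rab4b and Rab29. Rab5c was lost without day 1 replicate 1 or 3 or day 3 replicate 1 or 2 (adjusted p from 0.051 to 0.072), Rab20 without day 1 replicate 1, 4 or 5 or day 3 replicate 1, 2 or 3 (0.052 to 0.089) and Rab15 without day 1 replicate 1, 4 or 5 or day 3 replicate 1, 3, 4 or 5 (0.058 to 0.13). Rab5a was lost without day 1 replicate 2, 4 or 5 or day 3 replicate 1, 2 or 3 (0.053 to 0.11), Rab13 without day 1 replicate 1, 2, 4 or 5 or day 3 replicate 1, 2 or 4 (0.053 to 0.13) and Rab42 without day 1 replicate 2 or day 3 replicate 1 (0.056 to 0.095). Among the higher genes, Rab12 and Rab4a were lost without day 1 replicate 2 (0.063 and 0.052), Rab10 without day 1 replicate 4 or day 3 replicate 1 or 2 (0.055 to 0.068), Rab1a without day 1 replicate 2 or day 3 replicate 2 or 5 (0.052 to 0.11), and Rab9 without day 1 replicate 1, 2 or 3 or day 3 replicate 1, 2, 4 or 5 (0.064 to 0.13). Without day 1 replicate 1, 4 Rab genes were called lower in place of 8. Secretory genes then had 6 higher and 0 lower in place of 5 and 1. Endosomal genes had 2 and 1 in place of 3 and 3, and recycling genes 3 and 1 in place of 3 and 2. Under total-count scaling 16 were higher and 4 lower, and Rab20 (adjusted p = 0.092), Rab15 (0.13), Rab5a (0.099) and Rab13 (0.22) were no longer called.

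Paralogues that share a number, and largely a compartment, were compared as the log2 ratio of their UMIs within each library, which no scaling of libraries changes. The 12 pairs were chosen after gene values had been seen, and their 36 exact two-sided permutation tests over 252 assignments of 5 against 5 can give no p below 0.0079. That smallest p became 0.032 after Benjamini-Hochberg adjustment, because 9 of the 36 tests tied at it. At day 1, 4 ratios reached that value. The Rab1a to Rab1b ratio went from −0.41 ± 0.13 to −1.77 ± 0.66, a difference of −1.36, so the balance moved towards Rab1b. With an offset for 3' end composition, the difference between the log2 changes of Rab1a and Rab1b was −0.39 in place of −1.22 at day 1, and −0.15 in place of −0.56 at day 3. At day 1 it was −1.12 for Rab4a and Rab4b, 2.17 for Rab5a and Rab5b and −1.37 for Rab5b and Rab5c. The Rab4a to Rab4b ratio went from −2.37 ± 0.34 to −3.81 ± 0.46, towards Rab4b. The Rab5a to Rab5b ratio went from −2.90 ± 0.26 to −0.99 ± 0.37 and the Rab5b to Rab5c ratio from −1.95 ± 0.34 to −3.49 ± 0.86, both away from Rab5b. All 5 day 1 libraries lay outside the untreated range in each of these pairs. At day 3 against untreated libraries only the Rab1a to Rab1b ratio reached that value, at −0.99 ± 0.27, while the Rab4a to Rab4b ratio was at −2.39 ± 0.09 (difference −0.02, adjusted p = 0.94). From day 1 to day 3, 4 ratios reached it, those of Rab4a to Rab4b (difference 1.42), Rab5a to Rab5b (−1.45), Rab5b to Rab5c (1.61) and Rab2a to Rab2b (−1.06). The Rab11a to Rab11b ratio, in which both genes fell at day 1, changed by 0.62 (exact adjusted p = 0.057). No stretch of 40 bases in the last 400 bases of these transcripts was shared between paralogues.

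**Figure D4:**
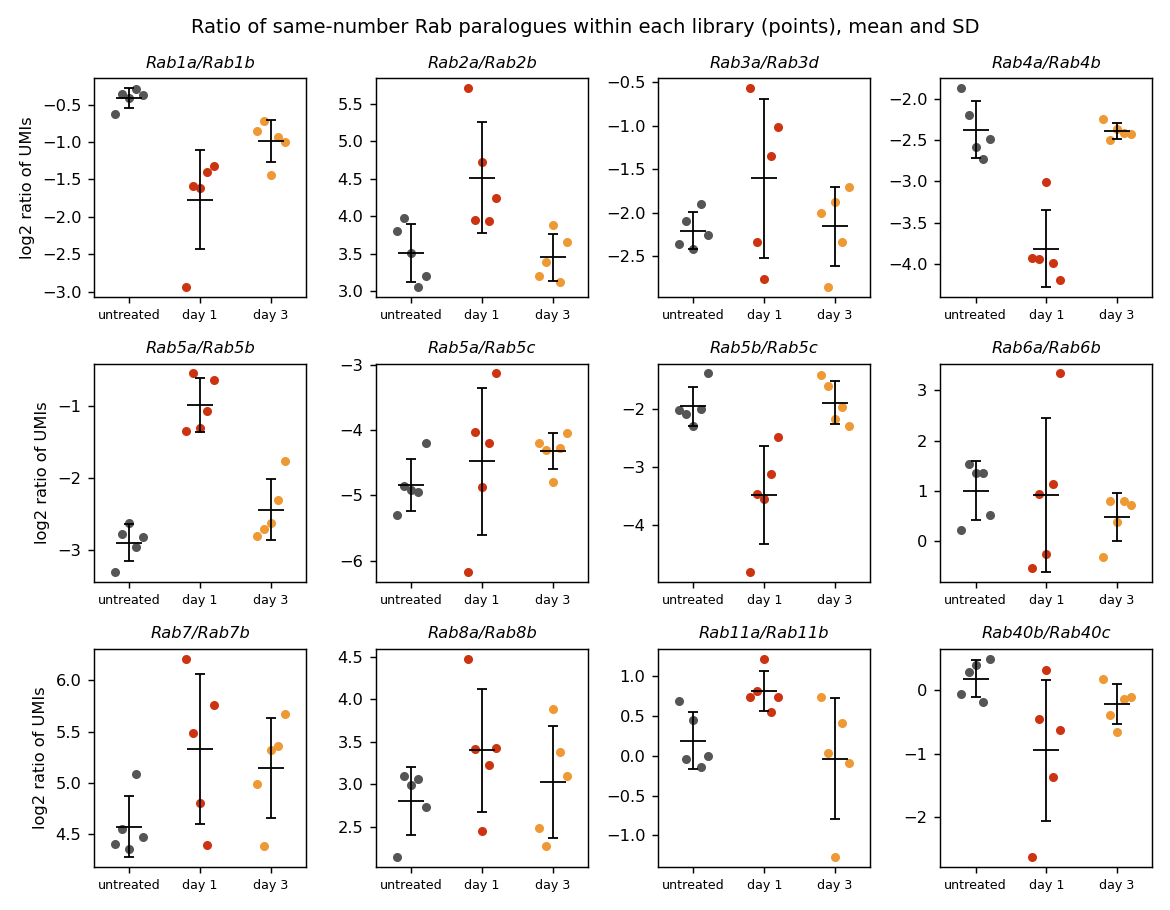
Log2 ratio of UMIs of 12 same-number Rab pairs in each library (points) with mean and SD of 5 libraries per group. The Rab1a/Rab1b, Rab4a/Rab4b and Rab5b/Rab5c ratios are lower in all day 1 libraries than in untreated ones, and the Rab5a/Rab5b ratio is higher.

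The composition of the 3' end, which MARS-seq captures, moved with the day 1 change over all genes and over the Rab genes. The GC content of the last 400 transcript bases had a median of 46.8% in the 11 Rab genes that were higher, 37.5% in the 18 lower and 48.0% in the 16 not called. Over all genes with a value the medians were 49.3% for higher, 39.5% for lower and 44.0% for those not called. Across the 45 Rab genes, which share the same libraries and are not independent, Pearson's r of log2 change and GC content was 0.40 and Spearman's rho 0.44, and they were 0.29 and 0.36 across 9898 genes. Rab5a, with the lowest GC content of all tested Rab genes, 30.3%, was higher at day 1, while Rab1a at 31.3%, Rab10 at 32.3% and Rab30 at 32.8% were lower. With an offset for GC content and 3' UTR length fitted over all genes, which was added after seeing the data, 13 Rab genes were higher and 13 lower at day 1. Rab1a (adjusted p = 0.061), Rab1b (0.74), Rab11a (0.088), Rab5b (0.14), Rab6a (0.35), Rab33b (0.42), Rab28 (0.27) and Rab40b (0.17) were no longer called. In their place Rab22a, Rab32 and Rab35 were called higher and Rab34 and Rab3a lower. With the same offset the log2 change was 1.48 for Rab20, 1.80 for Rab15, 1.85 for Rab5a, 1.05 for Rab5c, 0.42 for Rab4b, −0.65 for Rab30, −1.37 for Rab11b, −1.25 for Rab23 and −0.91 for Rab3d, each still called. At day 3 Rab30 (adjusted p = 0.22) and Rab10 (0.11) were no longer called, and Rab5a and Rab8a were called higher. The part of 3' end composition in these changes was not tested.

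**Figure D5:**
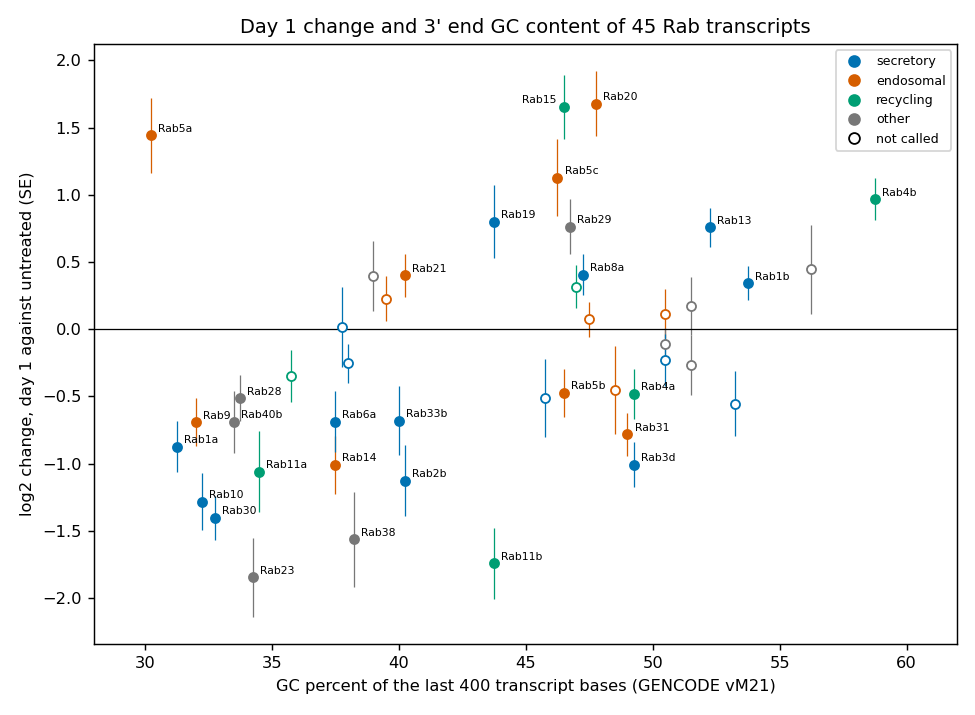
Log2 change at day 1 with its SE against the GC percent of the last 400 transcript bases for 45 Rab genes, coloured by route and filled where called. Most genes under 40% GC lie below 0, with Rab5a at 30.3% and a log2 change of 1.44 as the exception among called genes.

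Overlapping annotation limits some values, because whether reads were counted by strand is not given in the sources used here. Exons on the opposite strand overlap the 3' ends of Rab10 (Rab10os), Rab2b (Gm43766) and Rab5a (Pp2d1), and Gm45140 shares that of Rab43 on the same strand. In Rab33b, 159 of 361 stretches of 40 bases at the 3' end also occur in other genes.

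Genes that switch Rabs, bind them or act with them were described from 8 lists of Rab regulators, effectors and fusion proteins, with 159 genes tested of 176 in the table. Their calls come from the main fit alone. How far they depend on scaling, depth, single libraries or 3' end composition was not tested. At day 1, 19 were higher and 42 lower, which is 38.4% of them beside 46.2% of all genes (23.1% in each direction), and their median log2 change was −0.14. Effectors, which bind active Rabs, had 4 higher and 13 lower of 33, and GTPase-activating proteins 3 higher and 11 lower of 31, with Tbc1d12 (−1.45 ± 0.24, adjusted p = 5.1e-05), Evi5 (−1.12 ± 0.23, adjusted p = 4.7e-04) and Tbc1d16 (−0.92 ± 0.20, adjusted p = 7.4e-04) as the falls of smallest p. Appl1, a Rab5 effector on early endosomes, fell from 20.2 ± 3.85 to 5.55 ± 0.70 CPM (log2 change −1.89 ± 0.22, adjusted p = 4.5e-07), and Micall1, an effector of recycling endosome Rabs, rose from 11.96 ± 1.98 to 29.8 ± 6.80 CPM (1.34 ± 0.20, adjusted p = 1.3e-05). Exchange factors had 3 higher and 5 lower of 27. Among the rises were 2 activators of Rab5, Rabgef1, from 34.3 ± 5.30 to 61.5 ± 8.46 CPM (0.82 ± 0.15, adjusted p = 1.5e-04), and Rin1, from 3.92 ± 1.40 to 10.2 ± 4.14 CPM (1.43 ± 0.37, adjusted p = 0.0031), while Rin2, of the same family, fell (−0.82 ± 0.22, adjusted p = 0.0037). Of the prenylation genes, Rabggta, the alpha subunit of the enzyme that attaches the prenyl tail to Rabs, rose (0.83 ± 0.23, adjusted p = 0.0052), and Chm, the escort protein that presents Rabs to it, fell (−1.06 ± 0.24, adjusted p = 0.0011).

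SNAREs, which carry out the fusion itself, had 6 higher and 2 lower of 30 at day 1, or 26.7% called beside 46.2% of all genes. Vamp8, of endosomal and late fusion, rose from 87.7 ± 13.0 to 203 ± 22.6 CPM (1.21 ± 0.16, adjusted p = 4.0e-06), and Stx5a, of ER-to-Golgi fusion, rose from 107 ± 13.1 to 162 ± 26.1 CPM (0.60 ± 0.14, adjusted p = 0.0016). Vamp4, of endosome-to-Golgi transport, fell from 9.40 ± 2.76 to 1.73 ± 1.08 CPM (−2.66 ± 0.40, adjusted p = 1.5e-05). Retromer and sorting nexins, which retrieve cargo from endosomes, had no member higher and 5 of 10 lower, beside 23.1% of all genes in each direction. Among the lower ones were Vps29 (−1.33 ± 0.26, adjusted p = 2.5e-04), Vps26b (−1.51 ± 0.34, adjusted p = 9.2e-04) and Snx6 (−0.56 ± 0.15, adjusted p = 0.0050). Vps26b was at only 2.94 ± 1.06 CPM at day 1. The exocyst, which tethers vesicles at the surface, had Exoc4 higher (0.61 ± 0.17, adjusted p = 0.0051) and Exoc3 and Exoc5 lower (−1.89 ± 0.39 and −0.84 ± 0.22) of 8. Subunits of TRAPP, a complex that activates Rab1, had 1 higher and 3 lower of 13.

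At day 3 against untreated libraries 8 of these 159 genes were higher and 16 lower, or 15.1% beside 18.4% of all genes. Among them, Micall1 (0.98 ± 0.19, adjusted p = 0.0015) and Rabgef1 (0.44 ± 0.15, adjusted p = 0.042) were higher, and Appl1 (−0.91 ± 0.18, adjusted p = 0.0014) and Chm (−0.82 ± 0.22, adjusted p = 0.012) were lower. The exocyst had Exoc4 higher (0.78 ± 0.16, adjusted p = 0.0024) and Exoc5 (−0.91 ± 0.21, adjusted p = 0.0045) and Exoc3 (−1.17 ± 0.32, adjusted p = 0.015) lower of 8. Trappc6a (0.63 ± 0.13, adjusted p = 0.0017) and Sytl1 (2.21 ± 0.54, adjusted p = 0.0092) were also higher, and Tbc1d23 (−0.87 ± 0.19, adjusted p = 0.0026) was lower. Between day 1 and day 3, 23 were higher and 15 lower, or 23.9% beside 32.7% of all genes. Effectors had 10 higher and 3 lower of 33, among them Rab11fip2 (1.16 ± 0.21, adjusted p = 2.4e-04) and Rab11fip5 (0.79 ± 0.15, adjusted p = 2.5e-04), effectors of Rab11, and Myo5a, a motor that Rab11 and Rab27a recruit (1.48 ± 0.24, adjusted p = 7.9e-05). GTPase-activating proteins had 7 higher and 1 lower of 31, or 25.8%, with Tbc1d2b (1.05 ± 0.15, adjusted p = 2.0e-05) as the rise of smallest p. Vps29 was higher at day 3 by 1.37 ± 0.25 (adjusted p = 2.4e-04), and Vamp8 fell by 0.99 ± 0.16 (adjusted p = 7.4e-05).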

How the data were processed

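RNA was measured in sorted thymic fibroblasts by bulk MARS-seq, per the labels. Per the submitters' processing notes, STAR 2.5.2b and HTSeq were used on mm10, besides cutadapt, bcl2fastq and DESeq2, and the deposited table holds raw UMI counts per gene. Its fold changes are log2 values, per the file headers, with the group named first over the second, and its p-value columns hold the authors' adjusted p. Those columns were used only where the authors' deposited table is named.

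From the counts, genes were filtered with filterByExpr, libraries were scaled with TMM, and edgeR 4.0.16 in R 4.3.3 fitted 1 quasi-likelihood model with group as factor to all 15 libraries (biological coefficient of variation 0.201). Members are the 47 genes matching the symbol rule. Members, routes and lists were chosen with earlier results of these data known. Called Rab genes, the 5 most abundant and a set of route landmarks were named. Named Rab partners were picked from the up to 3 called genes of smallest p per list and comparison. Others of these were left out. No samples were dropped or imputed.

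Alternatives were DESeq2 1.42.0, voom in limma 3.58.1, total-count or RLE scaling, a minimum of 10 counts in 5 libraries or no minimum at all, fits to the compared groups alone, a replicate block, thinning to 740169 UMIs, leaving out each library, and counting Rab8a, Rab8b, Rab10, Rab13, Rab14 and Rab22a as recycling. A 3' end offset, the paralogue ratios (prior count 0.5) and their alternatives were added after seeing the data. The fit was tested on simulated data in which 200 of 10207 genes were changed in each comparison. It recovered 13.4% to 22.4% of 1.5-fold changes, 58.2% to 70.1% of 2-fold changes and 95.5% to 97% of 4-fold changes. It also called 8 to 11 unchanged genes. A gene that was not called may therefore still have changed. More genes were called in the data than were changed in the simulation, so recovery in the data can differ. Ratios were tested in Python 3.11.15 with scipy 1.17.1. Gene models are those of GENCODE vM21 on GRCm38. The depth of 740169 to 3750214 UMIs limits the precision of genes at a few UMIs.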

Additional observations from a re-analysis of the deposited data

Results flagged for a closer look

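Single libraries lay far from the other 4 of their group in 6 of 135 groups of 5 libraries, where chance alone flags about 1 group in 20. Of these, 3 were in day 1 replicate 1, the shallowest library, where Rab1a was lowest at 18.9 CPM beside 49.3 to 59.7 in the others, Rab21 was lowest at 52.0 CPM beside 71.0 to 76.1, and Rab43 was highest at 119.7 CPM beside 46.0 to 64.6. Rab1b was highest in day 1 replicate 3, at 178 CPM beside 142 to 149.6. Rab30 was lowest in day 3 replicate 3, at 19.2 CPM beside 24.0 to 25.7, and Rab6b was highest in day 3 replicate 1, at 39.4 CPM beside 21.2 to 25.3.

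In 6 Rab genes the day 1 and day 3 changes against untreated libraries had opposite signs and the difference between day 3 and day 1 was called. The log2 difference of day 3 from day 1 was 1.22 for Rab2b, 0.86 for Rab31, 0.76 for Rab5b, 0.58 for Rab12, 0.58 for Rab4a and −1.01 for Rab42. No day 3 change of these 6 genes against untreated libraries was called on its own.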

How the results depend on the processing

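Over the alternatives, 2441 of 2673 values of single Rab genes stayed on their side of the threshold, 162 lost it and 70 passed it. The sign changed in 92 values, none of them called in either fit. With counts thinned, Rab1b, Rab21, Rab40b, Rab4a, Rab5b and Rab8a lost their day 1 call, and Rab10, Rab13, Rab15, Rab20, Rab4a, Rab5b and Rab5c theirs for day 3 against day 1. With the 3' end offset the latter was lost by Rab10, Rab12, Rab13, Rab1a, Rab30, Rab42 and Rab9.

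In the following, counts of Rab genes are called genes and medians are log2 changes. At day 1 against untreated libraries, total-count scaling gave 6 higher, with medians of −0.80 (secretory), −0.17 (endosomal) and −0.61 (recycling), and 29.1% of all calls were higher. Thinning to the smallest total gave 6 higher, 2926 genes called in all and a recycling median of −0.13. DESeq2 and no filter gave secretory medians of −0.38 and −0.40, counting genes of dual role as recycling gave −0.62 (secretory) and 0.015 (recycling), and the 3' end offset gave −0.24, −0.093 and 0.0044 for the 3 routes. At day 3, total-count scaling gave 8 lower, medians of −0.16, 0.084 and −0.016, and 31.4% of all calls higher. Thinning gave 1 higher, 3 lower, 763 genes in all and medians of −0.17 (secretory) and 0.073 (endosomal). DESeq2 gave 5 higher, voom 6 higher, 10 lower and 3334 genes in all, a fit to the compared groups only 6 higher, the 3' end offset 4 higher, 3 lower and a recycling median of −0.064, and dual roles a secretory median of −0.14. For day 3 against day 1, total-count scaling gave 4 lower and medians of 0.40 (secretory) and 0.24 (endosomal), with 65.7% of all calls higher. No filter gave 5 lower, the compared groups only 4 lower, thinning 7 higher, 2 lower, 1978 genes in all and a recycling median of −0.051. The 3' end offset gave 7 higher and medians of 0.073 (secretory) and 0.25 (recycling), and dual roles a recycling median of 0.053. The cause was not tested.

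Leaving out each library gave 8 to 11 higher and 15 to 19 lower at day 1, with secretory medians from −0.59 to −0.43 and recycling medians from −0.57 to −0.22. At day 3 it gave 2 to 4 higher and 3 to 6 lower, and for day 3 against day 1 8 to 11 higher and 2 to 7 lower. It left 0 paralogue ratios called (4, 1 and 4 with all libraries). The smallest p that 5 against 4 libraries can give is higher and stayed above the threshold after adjustment, so that says nothing about them.

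The labels give no pairing of samples beyond a shared replicate number. The correlation of deviations of same-numbered libraries was over 0.1 in 4 of 15 pairs (−0.35 to 0.17), and 2 of 15 libraries matched their own number best. With so few libraries this cannot show that same-numbered ones shared no batch. With the replicate number as a block, the calls were 10 higher and 17 lower at day 1. At day 3 they were 2 higher and 6 lower, and from day 1 to day 3 they were 10 higher and 6 lower. Depth limits Rab27a and Rab33a and genes such as Rab5a and Rab42, which had few UMIs in each library.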
